A study of Mus musculus with 24 samples.

Results

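Of the mouse orthologs of genes on human chromosome 21, a list of 52 was examined in RNA from brain. All 52 lie outside the extra chromosome segment of Ts1Cje mice and are therefore present in 2 copies in both genotypes. The rule for choosing them was their place in the genome, though earlier results of these data were known when the list was made. On mouse chromosome 16 there are 16, on the centromeric side of the segment, with 10 on chromosome 17 and 26 on chromosome 10. RNA was hybridised to 2 Affymetrix designs (MGU74A, here array A, and MGU74B, here array B), and 48 of the 52 genes were each named alone by a probe set of at least 1 of them. The first carried 47 such probe sets for 35 genes, of 12422 probe sets in all, and the second carried 44 for 29 genes, of 12411. Btg3, Hsf2bp, Trpm2 and Prmt2 were not analysed here.

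The compared groups were 2N mice, with the normal chromosome complement, and Ts1Cje mice, a Down syndrome model, with 6 samples per genotype on each array design. Ts1Cje mice carry an additional copy of distal chromosome 16, translocated onto distal chromosome 12. That copy begins next to Sod1. The translocation is also known to have removed a small telomeric part of chromosome 12, so the groups differ in the dosage of a few genes there too. Brain region, age, sex and strain background are absent from the labels, as is any statement of whether each sample was 1 animal. The p-values therefore rest on a sample-to-sample spread that can be technical.

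Human chromosome 21 corresponds to parts of 3 mouse chromosomes. Trisomy of the human chromosome raises the copy number of all of its genes, whereas Ts1Cje mice have extra copies only of those orthologs in the distal chromosome 16 segment. The orthologs left with a normal copy number are varied in function. They include enzymes of sulfur amino acid, vitamin B6 and sterol metabolism (Cbs, Pdxk, Lss), a folate carrier (Slc19a1) and chains of collagens VI and XVIII (Col6a1, Col6a2, Col18a1). Others are cell adhesion molecules (Ncam2, Cxadr, Jam2), ubiquitin and SUMO pathway proteins (Usp16, Usp25, Ube2g2, Sumo3) and the glial calcium-binding protein S100b.

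Neuronal markers were present in all samples. All 8 tested markers of 10 on array A had differences above 0, with 0 past the test. Their summed intensity was 5380 to 6180 in 2N and 5790 to 6630 in Ts1Cje, overlapping ranges. Array B tested 4 of the markers, with 2 above 0 and 2 below, and Map2 and Syt1, the genes of a dendritic microtubule protein and a synaptic vesicle protein, were at -0.0302 (SE 0.0654) and -0.102 (SE 0.0857) there. The part of these markers in the results below was not tested. Tubb3, a neuronal tubulin gene, stood at 2670 ± 164 and 2800 ± 172 (SD, n = 6). Replicates 1 and 2 of both genotypes lay on the other side of 0 from replicates 3 to 6 on the first principal component of the deviations from the genotype means. This held on both arrays, where that component carried 16% and 14% of the variance. The separation is known only from the data, so values from replicates 3 to 6 alone are given beside the main results. Each value below is a quantile-normalised intensity in arbitrary units, and each difference is the mean log2 value in Ts1Cje minus that in 2N, from a limma fit across all tested probe sets of an array. A gene was represented on each array by its brightest probe set, and a filter on dim probe sets left 43 of the 48 genes (32 measured by the first design, 25 by the second).

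No disomic ortholog passed the test for a difference between the genotypes. The count was 0 of 32 for array A and 0 of 25 for array B (limma, Benjamini-Hochberg adjusted p under 0.05), where 0.0966% and 0.0645% of all tested probe sets passed. A plain test per probe set also called 0 on each array. At an unadjusted p under 0.05 there was 1 member on each array, Itgb2 on array A, which passed the filter only through its Ts1Cje samples, and Pofut2 on array B, against 3.65% and 4.28% of all tested probe sets. The lowest adjusted p of a member was 0.991 for array A and 0.997 for array B. In RNA of a whole tissue, fewer cells of a type and less RNA per cell cannot be told apart.

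The differences were centred near 0 on each of the chromosomes. On array A the median difference was -0.01 over 8 genes of chromosome 16, 0.02 over 5 of chromosome 17 and 0.02 over 19 of chromosome 10. On array B the medians were -0.05 over 8 genes, -0.06 over 6 and 0.06 over 11. The median over all tested probe sets was -0.0042 for array A and -0.0034 for array B. Of the members, 18 lay above 0 and 14 below on array A, where 48.9% of all tested probe sets lay above. For array B there were 12 above and 13 below, against 49.3%. Among replicates 3 to 6 alone the medians were -0.04, 0.07 and 0.01 on array A and -0.07, -0.06 and 0.03 on array B, in the same order of chromosomes. Of the 57 gene values over both designs, 28 were within 0.1 of 0 on the log2 scale and 47 within 0.3. These values count 14 genes once per array. The share of all tested probe sets within the same limits was not computed, so closeness to 0 is not shown to be particular to the members.

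**Figure D1:**
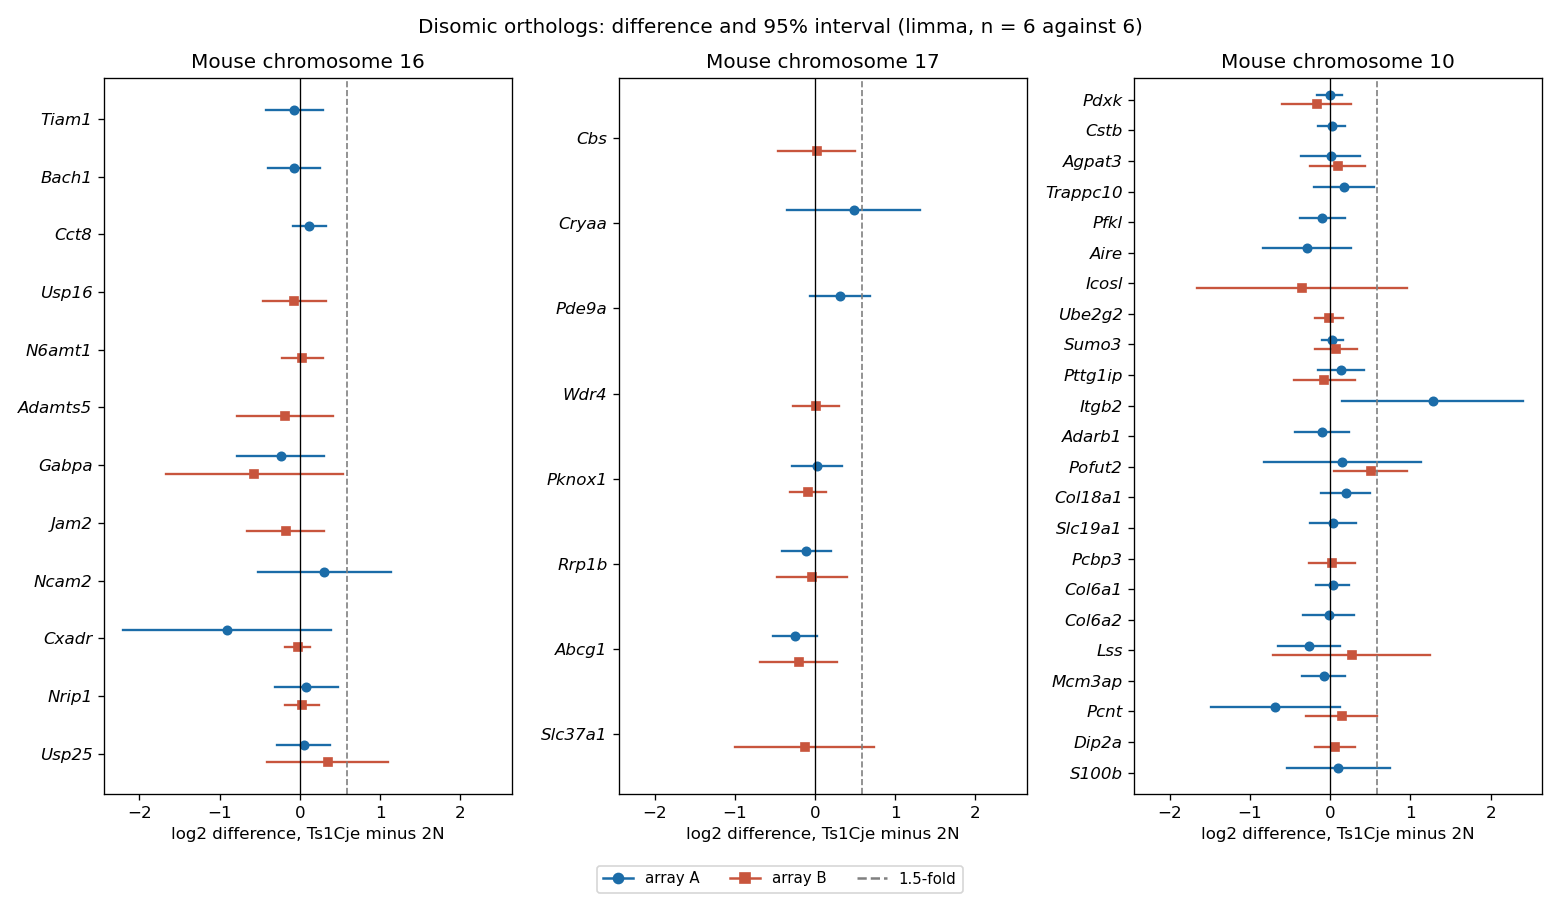
The log2 difference of each tested member (Ts1Cje minus 2N, points) with its 95% interval (bars, limma, 6 samples against 6) is shown for array A and array B on each chromosome. The solid line is no difference and the dashed line is 1.5-fold. All intervals cross 0 except those of Itgb2 on array A and Pofut2 on array B.

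An additional gene copy would give a ratio of 1.5, or 0.58 on the log2 scale, if expression followed copy number. Each difference was therefore also tested against that ratio in the same fit. On array A, 25 of 32 members differed from 1.5-fold and lay below it (adjusted p under 0.05), and on array B 18 of 25 did. Of all tested probe sets 66.5% did so on array A and 59.7% on array B, so these shares are not particular to the members. Counted by gene instead of by probe set, 70.4% of all tested genes (array A) and 64.9% (array B) lay below it. Of the 43 member genes, 34 lay below 1.5-fold on at least 1 array. These were 11 of 12 on chromosome 16, 5 of 8 on chromosome 17 and 18 of 23 on chromosome 10. The 14 members tested with both designs had a chance on each, and no such count was made for all genes. The 34 therefore cannot be set against the shares of a single array. By the same test 2 of 31 genes of the trisomic segment were called below 1.5-fold for array A, and 4 of 26 for array B. Their median differences were 0.51 and 0.49. With replicates 3 to 6 alone, 24 and 15 members were called below 1.5-fold. Without normalisation between arrays the counts were 15 and 0. The share of all tested probe sets called was not computed under these settings, so these counts have no background beside them.

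The members were also summarised within each sample. The median over the 32 members on array A, relative to the 2N mean of each gene, ran from -0.000392 to 0.0576 in the 2N samples and from -0.11 to 0.0849 in the Ts1Cje samples. On array B, with 25 members, it ran from -0.046 to 0.116 in 2N and from 0.0125 to 0.0669 in Ts1Cje. The groups overlapped on both arrays. The median over the listed genes of the trisomic segment was 0.505 to 0.574 in the Ts1Cje samples of array A and 0.362 to 0.612 in those of array B, and no 2N sample of either array exceeded 0.145.

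**Figure D2:**
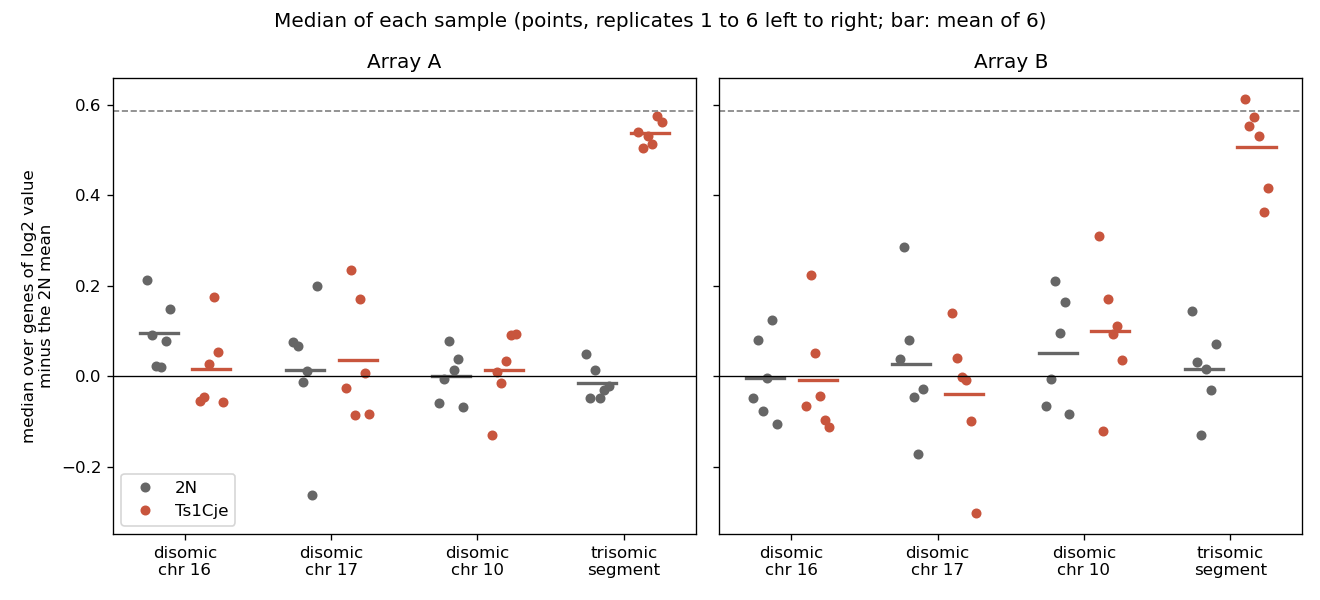
Each point is 1 sample: the median, over the genes of a set, of the log2 value minus the 2N mean of the gene. Bars are means of 6 samples and the dashed line is 1.5-fold. In the 3 disomic sets 2N and Ts1Cje samples overlap on both arrays, and in the trisomic segment all Ts1Cje samples lie above all 2N samples.

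The chromosome 16 members run from Samsn1 at the centromeric end to Tiam1, the member nearest to the segment. Tiam1 encodes an exchange factor that activates the small GTPase Rac1, and the reference annotation places no protein-coding gene start between the starts of Tiam1 and Sod1. In 2N samples the Tiam1 intensity was 23.3 at the lowest, 29.2 at the median and 39.2 at the highest, and in Ts1Cje samples 25, 26.8 and 37.4. The groups overlapped over most of their range. The difference was -0.07 (SE 0.167, 95% interval -0.42 to 0.28), below 1.5-fold (limma adjusted p = 0.00281). A second, dimmer Tiam1 probe set differed by -0.51 with an interval of -1.80 to 0.78, which holds both 0 and 1.5-fold. On the other side of Sod1, the nearest measured genes of the segment were Scaf4 and Hunk on array B, at 0.53 (SE 0.151) and 0.29 (SE 0.135).

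**Figure D3:**
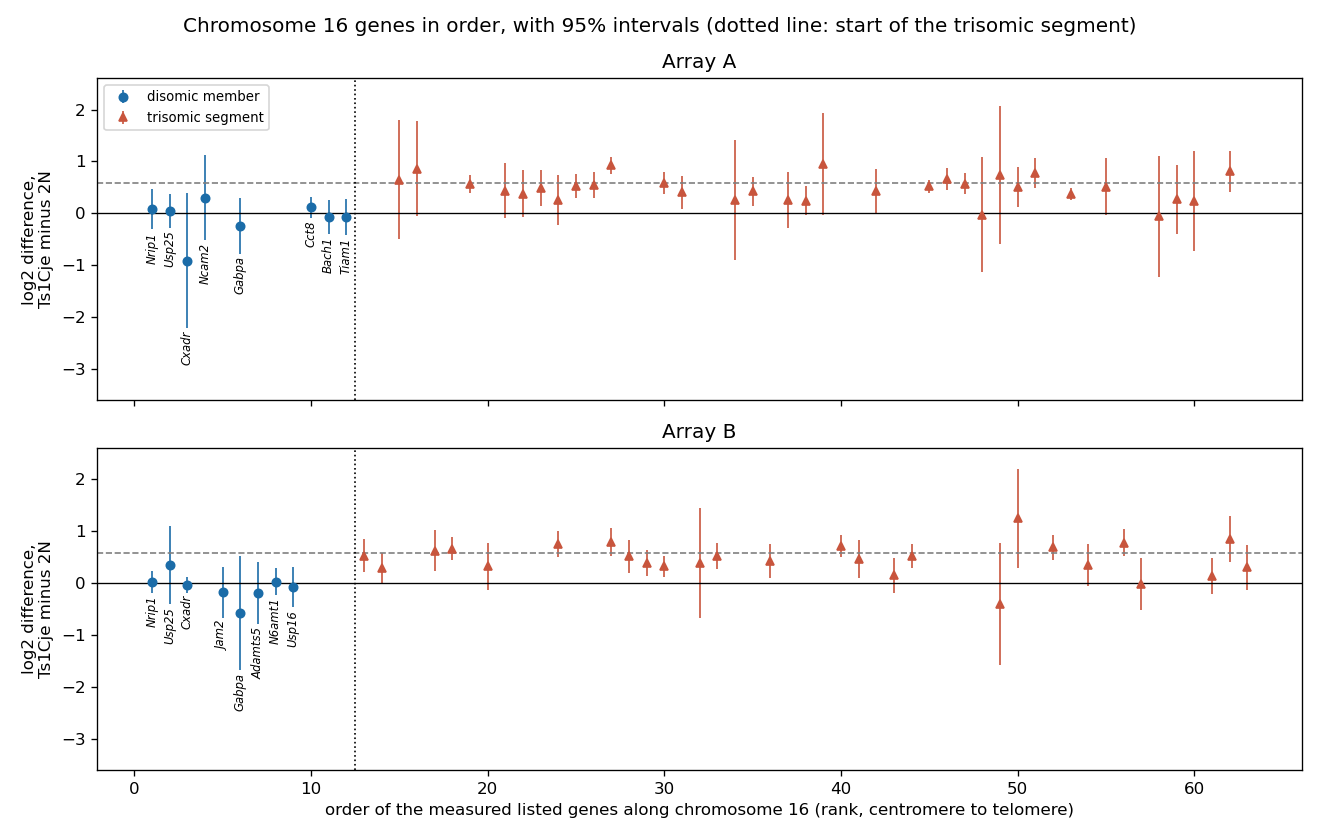
Log2 differences (Ts1Cje minus 2N) with 95% intervals are plotted in gene order along chromosome 16 for each array, with circles for disomic members and triangles for listed genes of the trisomic segment. The dotted line marks the start of the segment next to Sod1 and the dashed line is 1.5-fold. The circles, up to Tiam1, lie around 0, and the triangles lie mostly above it.

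Nrip1 encodes a corepressor of nuclear receptors. Its intensity on array B was 49.9 at the lowest, 53.8 at the median and 58.7 at the highest in 2N and 43.8, 57.4 and 63.1 in Ts1Cje, so that the Ts1Cje range enclosed the 2N range. The difference was 0.03 (SE 0.101), with 0.08 on array A. Cct8, which encodes a subunit of the cytosolic chaperonin that folds actin and tubulin, ran from 67.7 over a median of 74.2 to 91.8 in 2N and from 77.3 over 82.2 to 93.2 in Ts1Cje, a difference of 0.11 (SE 0.0975, interval -0.09 to 0.32). Its interval ended below 1.5-fold, and 0 of the 7 other listed chaperonin genes passed on array A, where Cct7 and Cct5 differed by 0.045 (SE 0.0743) and -0.06 (SE 0.0930). Cct4, the only one tested on array B, differed by 0.012 (SE 0.138).

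Bach1, a haem-binding repressor of oxidative stress genes, ranged from 40.4 to 66.4 with a median of 57.2 in 2N and from 41.4 to 69.7 with a median of 52.2 in Ts1Cje. The ranges nearly coincided, and the difference was -0.07 (SE 0.152). Its dimmer probe set differed by 0.25 (SE 0.429). Gabpa, an ETS-family transcription factor that acts on nuclear genes for mitochondrial proteins, was dim on both arrays. It differed by -0.24 (SE 0.256) on array A and by -0.57 (SE 0.525) on array B. Its array B values ran from 2.24 over a median of 6.28 to 6.91 in 2N and from 0.875 over 4.82 to 8.05 in Ts1Cje. The Ts1Cje samples spread more widely than the 2N samples and overlapped all of them.

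Among enzymes on chromosome 16, the deubiquitinase genes Usp16 and Usp25 differed by -0.07 (SE 0.186, array B) and 0.05 (SE 0.158, array A). Usp25 also had a pair of dim probe sets on array B, which differed by 0.35 (SE 0.358) and -0.94 (SE 0.556), with opposite signs. The brighter of the pair ran from 2.82 over a median of 4.15 to 7.06 in 2N and from 3.92 over 5.52 to 7.64 in Ts1Cje. N6amt1, a protein methyltransferase gene, stood at 49.9 ± 6.32 and 51.2 ± 7.64 (SD, n = 6), a difference of 0.03 (SE 0.122). Its dimmer tested probe set differed by -0.18 (SE 0.236). Adamts5, which encodes a secreted protease that cleaves proteoglycans, had 3 tested probe sets, between -0.25 and -0.08.

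Of the adhesion genes of chromosome 16, Cxadr was tested on both arrays. It encodes a junction protein that serves as a virus receptor. On array B it ran from 129 over a median of 137 to 151 in 2N and from 125 over 132 to 148 in Ts1Cje, a difference of -0.03 (SE 0.0732, interval -0.18 to 0.13). On array A its probe set was dim, with 2.37, 13 and 25 in 2N and 2.17, 4.39 and 13.2 in Ts1Cje, and a difference of -0.91 (SE 0.614). The array A groups overlapped, and the array B probe set, with the smaller error, gave a value near 0. Jam2, a junctional adhesion molecule gene, differed by -0.18 (SE 0.231). Ncam2, which encodes a neural cell adhesion molecule, was at 11.9 ± 6.12 and 13.1 ± 4.08 (SD, n = 6), with a difference of 0.30 and an interval of -0.52 to 1.13 that holds both 0 and 1.5-fold. Samsn1, Adamts1 and the claudin gene Cldn8 were too dim to be tested.

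On chromosome 17, Abcg1, a transporter that exports cholesterol from cells, had the smallest p of the brightest probe sets. Its array A intensity was 39.2 at the lowest, 44.8 at the median and 47.8 at the highest in 2N and 29.6, 37.2 and 43.8 in Ts1Cje. The upper Ts1Cje samples overlapped the 2N range. The difference was -0.25 (SE 0.129, interval -0.53 to 0.02, limma adjusted p = 0.991), and -0.20 (SE 0.230) on array B, where values ran from 9.52 over 18.2 to 22.5 and from 10.7 over 12.8 to 21.6. Both arrays therefore had the same sign, and neither difference passed.

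Pde9a, a phosphodiesterase that degrades cyclic GMP, was next by p on array A. In 2N its intensity was 18.3 at the lowest, 29.4 at the median and 40.6 at the highest. In Ts1Cje it was 32.7, 36.3 and 41.9, so all 6 Ts1Cje samples lay within the upper part of the 2N range or just above it. The difference of 0.31 (SE 0.178, interval -0.07 to 0.68) held both 0 and 1.5-fold. It was 0.07 with replicates 3 to 6 alone and 0.79 with replicates 1 and 2 alone. With replicates 1 and 2 alone, 2 samples per genotype, the chromosome 17 median on array A was -0.34.

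Pknox1, a homeodomain transcription factor gene, ran from 30.4 over a median of 37.6 to 43.5 in 2N and from 29.8 over 34.6 to 50.4 in Ts1Cje on array A (0.02, SE 0.148). On array B the values were 38.2, 44.3 and 51.4 against 36.2, 42.0 and 46.5 (-0.09, SE 0.106). The groups overlapped on both arrays and both intervals lay below 1.5-fold. A dimmer Pknox1 probe set on array B differed by 0.0012 (SE 0.156). Wdr4, a subunit of a transfer RNA methyltransferase, ran from 26.3 over 39.8 to 45.5 in 2N and from 30.1 over 40.0 to 42.8 in Ts1Cje (0.02, SE 0.137). A slightly dimmer Wdr4 probe set differed by -0.24 (SE 0.109, interval -0.465 to -0.00773, limma adjusted p = 0.997). Rrp1b, a nucleolar protein gene, differed by -0.11 (SE 0.145) on array A and -0.03 (SE 0.208) on array B.

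Cbs encodes cystathionine beta-synthase, which begins the conversion of homocysteine to cysteine. On array B it stood at 15.8 ± 2.71 (2N) and 16.7 ± 5.24 (Ts1Cje; SD, n = 6), with a difference of 0.02 (SE 0.227, interval -0.46 to 0.50), below 1.5-fold (adjusted p = 0.0402). Of 14 listed genes of transsulfuration and one-carbon metabolism, array A tested 5 and array B 4, and 0 passed (limma). At an unadjusted p under 0.05 there was 1, Ahcy, the gene for the enzyme that hydrolyses S-adenosylhomocysteine, at -0.22 (SE 0.0974, adjusted p = 0.991). Shmt2, next in brightness to Ahcy on array A, differed by 0.0909 (SE 0.167), and the brightest on array B, Mthfd1 and Mtr, by 0.131 (SE 0.164) and 0.0413 (SE 0.258). Cryaa, a lens crystallin gene, and Slc37a1, a sugar phosphate transporter gene, were dim and not resolved, with intervals of -0.345 to 1.31 and -0.998 to 0.735. The difference of Slc37a1 was -0.13 (SE 0.412), and that of its dimmer probe set 0.10 (SE 0.431). Tff3 was not tested on either array.

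On chromosome 10, Sumo3, a ubiquitin-like modifier, had intensities of 579 at the lowest, 608 at the median and 644 at the highest in 2N and 551, 618 and 693 in Ts1Cje on array A. The Ts1Cje range enclosed that of 2N. The difference was 0.03 (SE 0.0620, interval -0.10 to 0.16), the narrowest interval of the tested members. The array B probe set gave 46.6, 65.4 and 80.4 against 53.6, 68.5 and 79.8 and a difference of 0.07 (SE 0.125). Of 11 listed partners in SUMO conjugation, array A tested 5 and array B 4, with 0 past the test and 0 at an unadjusted p under 0.05. Senp3 and Sae1 differed by -0.06 (SE 0.0819) and -0.01 (SE 0.124) on array A, and Senp1 and Senp2 by -0.19 (SE 0.101) and 0.13 (SE 0.125) on array B.

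Pdxk, the kinase that makes the active form of vitamin B6, ran from 197 over 222 to 232 in 2N and from 190 over 220 to 238 in Ts1Cje on array A (-0.0075, SE 0.0757). On array B the values were 13.2, 18 and 20.2 against 8.95, 15.6 and 20.8 (-0.16, SE 0.205). Ts1Cje samples lay on both sides of the 2N samples on each array. A dim second Pdxk probe set on array A differed by 0.33 (SE 0.462), with an interval of -0.64 to 1.31 that holds both 0 and 1.5-fold. Ube2g2, a ubiquitin-conjugating enzyme of endoplasmic reticulum quality control, ran from 63.8 over 75.3 to 82.5 in 2N and from 69.0 over 72.8 to 78.0 in Ts1Cje (-0.01, SE 0.0843). Here the 2N range enclosed that of Ts1Cje. Cstb, which encodes the cathepsin inhibitor cystatin B, stood at 149 ± 8.04 and 151 ± 13.3 (SD, n = 6), a difference of 0.02 (SE 0.0780). Of 10 listed cathepsin and cystatin genes, array A tested 8 and array B 1, and 0 passed. At an unadjusted p under 0.05 there were 2, the cathepsin genes Ctsh and Ctsz at -0.455 (SE 0.196) and -0.46 (SE 0.209, limma adjusted p = 0.991 for both). Cst3 and Ctsb differed by 0.07 (SE 0.0801) and 0.02 (SE 0.0634) on array A, and Cst6 by -0.385 (SE 0.416) on array B.

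Pfkl, the liver-type phosphofructokinase of glycolysis, was at 193 ± 25.5 (2N) and 183 ± 41.7 (Ts1Cje; SD, n = 6), with a difference of -0.10 (SE 0.135). None of the 12 listed glycolysis partners tested on array A passed. All 12 were above the median intensity and lay below 1.5-fold, as did 94.1% of all probe sets above that intensity there. Pkm and Ldha differed by 0.02 (SE 0.0986) and -0.03 (SE 0.0967). Of 2 tested on array B, Pfkp and Pgk1, neither passed, at 0.125 (SE 0.0881) and -0.0921 (SE 0.499). Slc19a1, the reduced folate carrier gene, differed by 0.04 (SE 0.136), and its dimmer probe set by -0.03 (SE 0.233). The phospholipid acyltransferase gene Agpat3 differed by 0.01 (SE 0.174) on array A and 0.09 (SE 0.163) on array B. Lss, the lanosterol synthase gene of cholesterol synthesis, had opposite signs on the arrays, at -0.26 (SE 0.182) on array A and 0.27 (SE 0.468) on array B.

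The collagen genes of chromosome 10 did not differ beyond the spread of the samples. Col6a1 and Col6a2 encode chains of collagen VI, a component of the matrix of connective tissue and meninges. Col6a1 was at 65.9 ± 4.35 and 67.5 ± 6.64 (SD, n = 6; difference 0.03, SE 0.0970) and Col6a2 at 42.3 ± 4.55 and 42.5 ± 9.72 (-0.02, SE 0.15). Both lay below 1.5-fold (limma adjusted p = 0.000151 and 0.00244). A dim second Col6a1 probe set differed by 0.05 (SE 0.622), and its interval of -1.26 to 1.37 held both 0 and 1.5-fold. Col18a1, whose product releases endostatin, had 4 tested probe sets between -0.57 and 0.20. The brightest of them gave 0.20 (SE 0.145, interval -0.11 to 0.50).

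Of 20 listed basement membrane and collagen partners, array A tested all and array B 2, and 0 passed. The brightest on array A, the proteoglycan gene Agrn and the collagen IV gene Col4a2, differed by 0.03 (SE 0.0612) and 0.26 (SE 0.0935, adjusted p = 0.991). The laminin gene Lamb2 and, again, Agrn were tested on array B and differed by 0.164 (SE 0.114) and -0.325 (SE 0.464). Col4a2 was the member of that list at an unadjusted p under 0.05. The 8 meningeal and fibroblast markers, all tested on array A, summed to between 1830 and 2190 in 2N and between 1600 and 2210 in Ts1Cje. The 8 endothelial markers there summed to between 331 and 426 and between 356 and 422. Both sums overlapped between the genotypes. The meningeal sum rests mostly on Ptgds and Igf2, at 854 ± 104 and 715 ± 78.7 in 2N (SD, n = 6). Of the meningeal and fibroblast markers 7 of 8 lay below 0 (median -0.085) and of the endothelial markers 6 of 8 above (median 0.14), with 0 past the test. Eng, the endothelial marker tested on array B, differed by 0.226 (SE 0.369). No marker of oligodendrocytes, choroid plexus, erythroid cells or skeletal muscle passed on either array. On array A the oligodendrocyte markers had 4 of 4 tested below 0 (median -0.059), the erythroid markers 4 of 4 below (-0.38), the choroid plexus markers 3 of 3 above (0.36) and the muscle markers 5 of 6 above (0.42). The part of these lists in the members' results was not tested. Sox10, an oligodendrocyte transcription factor gene, was at -0.0571 (SE 0.171) on array A and at 0.462 (SE 0.13) on array B, the latter at an unadjusted p under 0.05. The other oligodendrocyte marker tested there, Mobp, was at -0.379 (SE 0.404). Clic6, the choroid plexus marker tested on array B, was at 0.422 (SE 0.155), also at an unadjusted p under 0.05, and it lies in the trisomic segment.

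Itgb2, the beta chain of leukocyte integrins, which microglia carry in brain, had the smallest p of the members on array A. Its probe set was dim. The filter required a mean log2 value of 2.1, and the 2N mean was 1.66 and the Ts1Cje mean 2.95, so Itgb2 was tested only because of the group in which it was higher, as was no other of the 32 members tested on array A. Its p therefore supports no difference and its values are a description. In 2N the intensity was 0.742 at the lowest, 3.20 at the median and 9.17 at the highest, and 3 of the 6 values were at or below the floor of 1.47. In Ts1Cje it was 5.86, 6.89 and 11.3. The Ts1Cje samples lay in the upper part of the 2N range or above it, and the groups overlapped. The difference was 1.28 (SE 0.536, interval 0.15 to 2.41, limma adjusted p = 0.991), and it was 0.69 with the floor at the 20th percentile and to 0.27 with 16 added to each value. The microglia markers tested on array A, 7 of 10, summed to between 276 and 338 in 2N and between 244 and 343 in Ts1Cje, with 2 above 0 and 5 below in their differences. The complement genes C1qc and C1qa differed by -0.32 (SE 0.156) and 0.03 (SE 0.134).

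Pofut2, which adds fucose to secreted proteins, was the member at an unadjusted p under 0.05 on array B. Its intensity ran from 8.79 over a median of 12.6 to 20.2 in 2N and from 12.8 over 18.6 to 21.1 in Ts1Cje. The Ts1Cje median lay above the 2N median, and the ranges overlapped. The difference was 0.50 (SE 0.214, interval 0.0534 to 0.955, limma unadjusted p = 0.0304, adjusted p = 0.997). The array A probe set was dim and gave 0.15 (SE 0.463).

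Pcnt, which encodes pericentrin, a scaffold of the centrosome, differed by -0.68 (SE 0.379) on array A, the second smallest p of the chromosome there. The probe set was dim, with 4.24, 7.19 and 11.6 in 2N and 3.89, 4.20 and 7.94 in Ts1Cje, where 1 sample stood above the others. The brighter probe set on array B had the opposite sign, at 0.14 (SE 0.212). None of the listed centrosome partners passed, 11 tested for array A and 7 for array B, and 0 had an unadjusted p under 0.05. Dctn1 and Ndel1 differed by -0.0080 (SE 0.0848) and -0.03 (SE 0.105) on array A, and Akap9 and Nin by 0.161 (SE 0.0937) and 0.232 (SE 0.18) on array B. Mcm3ap, a messenger RNA export factor gene, differed by -0.08 (SE 0.128).

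Adarb1, which encodes an enzyme that edits glutamate receptor transcripts, had a pair of probe sets at -0.10 (SE 0.158) and -0.20 (SE 0.152). None of its listed partners passed, 7 tested for array A and 3 for array B, and 0 had an unadjusted p under 0.05. Gria2, whose transcript this enzyme edits, differed by 0.135 (SE 0.0708) and Blcap, another edited transcript, by -0.0664 (SE 0.106). On array B, Adar and Gria3 differed by 0.0101 (SE 0.0911) and -0.288 (SE 0.152). Pcbp3, an RNA-binding protein gene, and Dip2a differed by 0.02 (SE 0.134) and 0.06 (SE 0.118). S100b, a marker of astrocytes, was dim at 10 ± 3.61 and 10.8 ± 3.45 (SD, n = 6), and its interval of -0.54 to 0.75 held both 0 and 1.5-fold. Of 9 listed S100 genes 6 were tested on array A and 0 passed, with 1, the leukocyte gene S100a8, at an unadjusted p under 0.05 (-0.936, SE 0.432, limma adjusted p = 0.991). The brightest of them, S100a10 and S100a6, differed by -0.092 (SE 0.128) and -0.152 (SE 0.176). Of the 8 listed astrocyte markers, array A tested 6, with 4 above 0 and 2 below. Array B tested 4, with 2 above and 2 below, and 0 passed on either array. The brightest on array A, Fabp7 and Aldoc, differed by 0.0022 (SE 0.0631) and 0.17 (SE 0.134). Slc1a2 and Aldh1l1, the brightest on array B, differed by -0.0546 (SE 0.117) and 0.051 (SE 0.11).

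Pttg1ip, which encodes a membrane protein that binds securin, differed by 0.14 (SE 0.136) on array A and -0.07 (SE 0.179) on array B. Trappc10, a subunit of a vesicle tethering complex, differed by 0.17 (SE 0.179). The immune genes Aire and Icosl differed by -0.289 (SE 0.262) and -0.345 (SE 0.623). Ftcd, an enzyme of histidine breakdown, was too dim to be tested, with 9 of 12 values at or below the floor.

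**Figure D4:**
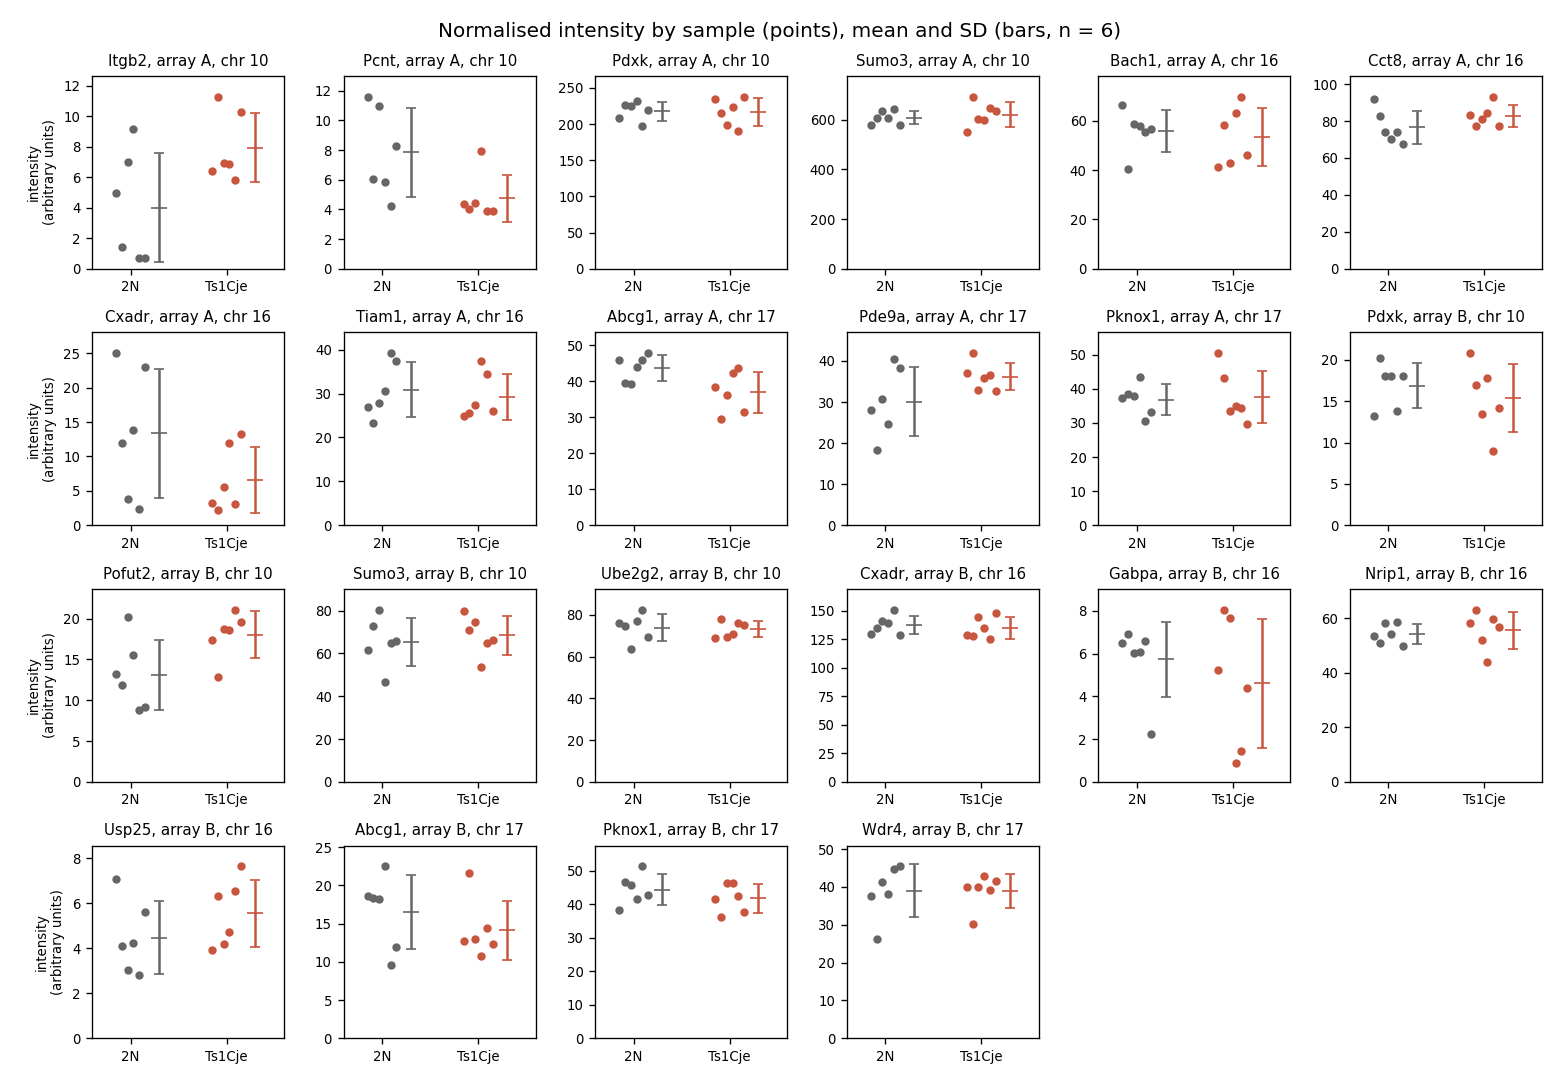
Quantile-normalised intensities (arbitrary units, linear axis from 0) of each sample are shown for the members described sample by sample, with replicates 1 to 6 from left to right in each genotype and the mean and SD of 6 beside them. The 2N and Ts1Cje samples overlap in every panel. Pcnt, Itgb2 and Cxadr on array A and Usp25 and Gabpa on array B are dim.

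None of the tested members had groups that did not overlap (0 of 32 for array A, 0 of 25 for array B), where 0.301% and 0.247% of all tested probe sets did. Of the 14 genes tested on both arrays, 10 had the same sign on both and 4 had opposite signs. Whether a number in the titles stands for the same RNA in both designs is not stated, so this is not independent replication.

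Not every member was called below 1.5-fold. The 9 genes called on neither array were Ncam2, Cryaa, Pde9a, Slc37a1, Trappc10, Icosl, Itgb2, Pofut2 and S100b. Wide intervals do not account for all of them. Pde9a (SE 0.178) was about as precise as Agpat3 on array A (SE 0.174), which was called, but its difference was 0.31. Pofut2 on array B was at 0.50 and Itgb2 at 1.28. The Trappc10 interval ended at 0.551, below 1.5-fold, with a limma adjusted p of 0.0516 against that ratio. For members above the median intensity of the tested probe sets the median half-width of the 95% interval was 0.296 for array A and 0.272 for array B. For dimmer ones it was 0.722 and 0.597. Of the brighter members 18 of 20 (array A) and 13 of 14 (array B) lay below 1.5-fold, against 94.1% and 88.9% of all probe sets above that intensity on the 2 arrays. Of the dimmer ones 7 of 12 and 5 of 11 did. Over all tested probe sets 6199 of 9316 (array A) and 5557 of 9308 (array B) were called below 1.5-fold. Of those called, 4382 and 4138 were among the 4658 and 4654 probe sets above the median intensity, so dimmer probe sets were called less often in general too. The remaining calls were a smaller share of all dimmer probe sets than 7 of 12 and 5 of 11. Members stand for the brightest probe set of their gene, and this difference in share was not tested. The half-widths are medians and single members differ from them, and 0 calls do not show that no member differed.

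**Figure D5:**
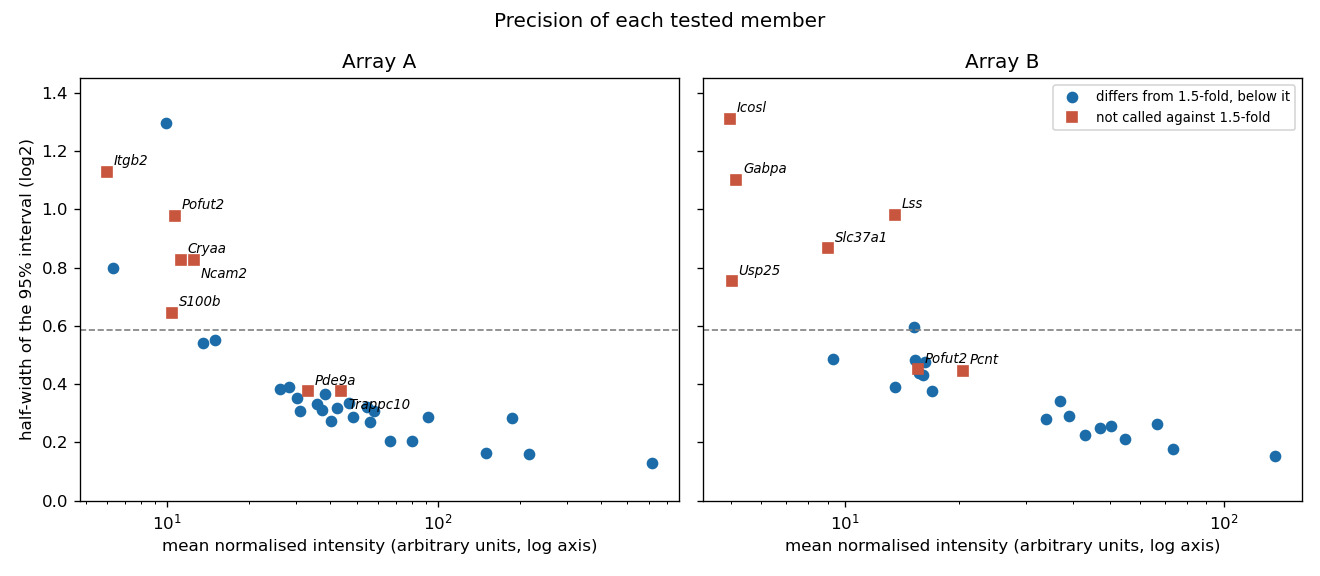
The half-width of the 95% interval of the log2 difference is plotted against mean normalised intensity (log axis) for each tested member, with circles for members called below 1.5-fold and labelled squares for those not called. The dashed line is 1.5-fold. The median half-width is 0.722 for the dimmer and 0.296 for the brighter members of array A, and the squares are mostly among the dimmer members.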

How the data were processed

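The authors deposited 1 linear intensity for each probe set of each array; the sources used here do not state how it was summarised or scaled. The 2% trimmed means had a spread of 2.1-fold (array A) and 1.86-fold (array B), so each table was quantile normalised after 66 control probe sets were left out. Values below the 10th percentile of a table (1.47 and 1.13) were raised to it before log2. Tests were run on probe sets whose mean log2 value reached the 25th percentile (9316 and 9308). Genes were named from the platform annotation where it gave 1 symbol (10833 and 10581 probe sets, several for 396 and 178, none for 1193 and 1652). RefSeq (GRCm38.p6) served for chromosomes and gene order only.

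The tests were limma 3.58.1 in R 4.3.3 (lmFit, eBayes with trend, Ts1Cje against 2N, no other term), against 0 and against log2 of 1.5, with Benjamini-Hochberg adjustment over each table. The pipeline was tested on simulated data. The tables were tested apart, and the number of arrays limits the precision. Members described sample by sample were those with the 2 smallest p and the 2 brightest of each chromosome and array, and Tiam1; of partner lists, the 2 brightest tested genes of each array are named, with others at an unadjusted p under 0.05 named after their values were seen. The members and lists were chosen with earlier results of these data known. Alternatives changed the normalisation, floor, filter, test, weights, block, probe set summary and samples.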

Additional observations from a re-analysis of the deposited data

Results flagged for a closer look

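In each genotype, the highest or lowest sample of a tested member was compared with the gap to its nearest neighbour by Dixon's criterion. Of 114 groups of 6 samples, 13 had a sample past the criterion, which was applied to log2 values. The intensities given here are linear. Chance gives about 1 in 20 for independent groups with normally distributed values. Since 14 genes enter on both arrays and some values are at the floor, the count is not set against that rate. Among the lowest samples, Wdr4 on array B was at 26.3 in 2N replicate 2 (nearest 37.6) and at 30.1 in Ts1Cje replicate 2 (nearest 39.2). Trappc10 was at 22.1 in 2N replicate 2 on array A (nearest 39.3), and Bach1 at 40.4 in the same sample (nearest 55.2). Lss on array B was at 4.20 in 2N replicate 3 (nearest 10.6) and at 2.31 in Ts1Cje replicate 2 (nearest 11.9). Agpat3 on array B was at 25.8 in Ts1Cje replicate 6 (nearest 37.4), N6amt1 at 36.6 in Ts1Cje replicate 5 (nearest 49.6) and Gabpa at 2.24 in 2N replicate 6 (nearest 6.04). Cryaa was at 2.37 in 2N replicate 5 on array A (nearest 8.61). Among the highest samples, all on array A, Pofut2 was at 25.8 in 2N replicate 3 (nearest 8.72), Pcnt at 7.94 in Ts1Cje replicate 4 (nearest 4.41) and Col6a1 at 80.4 in Ts1Cje replicate 6 (nearest 67.4). Replicate 2 holds 5 of the 13 samples, from both genotypes and both arrays.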

How the results depend on the processing

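The number of members past the threshold was 0 on both arrays under each of 26 alternatives, with current symbols 35 and 29 members were measured as before, and the lowest adjusted p of a member described sample by sample was 0.896 (array A) and 0.893 (array B), both with the replicate block. The number below 1.5-fold was 15 and 0 without normalisation between arrays, and 10 and 4 with replicates 1 and 2 alone, an alternative chosen after seeing the data (as was replicates 1 and 2 against 3 to 6 as a term), with 2 samples per genotype. With 16 added to each value, all 32 and 25 were called. Adding 16 shrinks the ratios of dim probe sets before the test, so this count does not place dim members against 1.5-fold. Without 1 sample in turn it ran from 23 to 26 and from 16 to 19. The chromosome 17 median on array A was -0.337 with replicates 1 and 2 alone. The replicate number was tried as a block because both genotypes carry the same numbers. Correlations between the deviations of same-numbered samples were small but all above 0 (0.0157 to 0.0787 on array A and 0.0122 to 0.109 on array B). Replicates 1 and 2 of both genotypes also shared a side of the first principal component. These values do not settle whether the numbers pair the samples, and the main fit has no term for either. With the replicate block the counts below 1.5-fold were 26 and 19. For none of the alternatives was the share of all tested probe sets below 1.5-fold computed, so changes in these counts are not particular to the members.

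Sign changes were found in differences of single members, of which none had passed, and in chromosome medians. Without normalisation between arrays, Sumo3 was at -0.0478 and Pknox1 at -0.028 on array A, and Ube2g2 at 0.0412 and Cxadr at 0.0317 on array B. With array weights Pknox1 was at -0.00681, and with replicates 3 to 6 alone at -0.119, Nrip1 at -0.0674 and Wdr4 at -0.05. With the mean over probe sets, Pdxk was at 0.163 and Bach1 at 0.0902 on array A, and Usp25 at -0.298 and Wdr4 at -0.111 on array B. With replicates 1 and 2 alone, Pdxk was at 0.0545, Cct8 at -0.115 and Tiam1 at 0.0138 on array A, and Pdxk at 0.206 and Usp25 at -0.111 on array B. Without 1 sample in turn the ranges of those that changed sign were -0.0361 to 0.0294 (Pdxk), -0.068 to 0.0838 (Pknox1), -0.00596 to 0.06 (Sumo3) and -0.145 to 0.00537 (Tiam1) on array A. On array B they were -0.0123 to 0.0936 (Nrip1), -0.0192 to 0.142 (Sumo3), -0.0541 to 0.02 (Ube2g2) and -0.0942 to 0.0878 (Wdr4). Of the chromosome medians, those that crossed 0 without 1 sample ran from -0.0082 to 0.0402 (chromosome 10), -0.0791 to 0.0353 (16) and -0.0543 to 0.0838 (17) for array A. For array B this was chromosome 16, at -0.078 to 0.00863. The causes were not tested.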
